A study of Arabidopsis thaliana with 16 samples.

Results

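The 7 nuclear genes described here encode factors that help build the photosynthetic complexes of the thylakoid, and a PsbP-domain protein. AT1G76450 and PYG7 had higher signals in the ppi2 mutant of Arabidopsis thaliana than in its wild type (WT). LPA19 and SECE1 had lower ones, and PSB27, CCB3 and ATAB2 overlapped between the genotypes. The genes were AT1G76450 (a PsbP-domain protein), PSB27 (AT1G03600), LPA19 (AT1G05385), PYG7 (AT1G22700), CCB3 (AT5G36120), ATAB2 (AT3G08010) and SECE1 (AT4G14870). They were chosen from the contrast of ppi2 with WT over the 3439 probes of the array. Of these probes 692 carried a single listed gene, and each of the 7 genes had 1 probe of its own. Their signals in these 16 samples were known when they were picked, so every comparison of ppi2 with WT for them is a description and carries no test.

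There were 8 ppi2 samples and 8 WT samples of total RNA, all of ecotype Wassilevskija. The ppi2 mutant lacks Toc159, the main receptor that chloroplasts carry on their surface for precursor proteins, and homozygous seedlings are albino. The labels describe the study as a comparison of this import mutant with WT, and give neither the tissue nor the age, growth or batch of the plants. Samples numbered 1 and 2, 3 and 4, 5 and 6, and 7 and 8 within a genotype resembled each other most and are averaged below as pairs 1 to 4 (n = 4 per genotype).

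Photosystem II, the cytochrome b6f complex and photosystem I are put together in the thylakoid membrane from subunits made in the chloroplast and subunits imported from the cytosol. Assembly factors bind the growing complexes, process or insert single subunits, attach cofactors, and leave before the complex is finished. All 7 genes lie in the nucleus, so their own products must be imported through the envelope as well. In mutants of several of these factors one complex fails to accumulate and the plants are pale or grow poorly.

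Values are normalized intensities after quantile normalization between samples, with a floor of 0.0338 below which values were not told apart. Of the 7 genes, 6 were above the floor in all 16 samples, and ATAB2 was at the floor in 1 WT sample. None was listed at 0 in any sample. The WT samples fell into subsets, pairs 1 and 2 against pairs 3 and 4, which no label accounts for. As deposited, the median intensity of a sample was 0.168 to 0.269 in ppi2, 0.198 to 0.212 in WT pairs 1 and 2, and 0.0976 to 0.124 in WT pairs 3 and 4. Each gene is therefore also given against both WT subsets and on the scale as deposited. The deposited values had the same highest value in every sample, so they may already have been scaled and are not known to be raw. The tissue is not stated, and in RNA from a mixture of cells, fewer cells of a type and less RNA per cell cannot be told apart.

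Of the 7 genes, 4 passed the threshold that limma gave over all probes (Benjamini-Hochberg adjusted p under 0.05), AT1G76450 and PYG7 above WT, LPA19 and SECE1 below it. Of all 3439 probes 28.6% passed, 14.2% higher and 14.4% lower. In the values as deposited 647 probes passed higher and 235 lower, in place of 488 and 496, and the log2 difference of the median probe was 0.30. The same 4 of the 7 genes had pair ranges that did not overlap between genotypes, as did 32.2% of all probes. The median log2 difference of the 7 genes was -0.59 and that of all probes 0. Because the genes were chosen with these values known, their passing and their ranks among all probes are descriptions and carry no support. In 15 of 21 alternative analyses these 4 and no other of the 7 genes passed, which describes the processing alone. Of the 4, only SECE1 was lost in any analysis, in the values as deposited. Besides the 4, ATAB2 passed without WT pair 2, and PSB27 passed without WT pair 4 and against WT pairs 1 and 2 alone. PSB27 and CCB3 both passed when every sample was counted as its own replicate, and CCB3 passed in 1 other analysis. Neither passed with sample pairs as a random block.

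**Figure D1:**
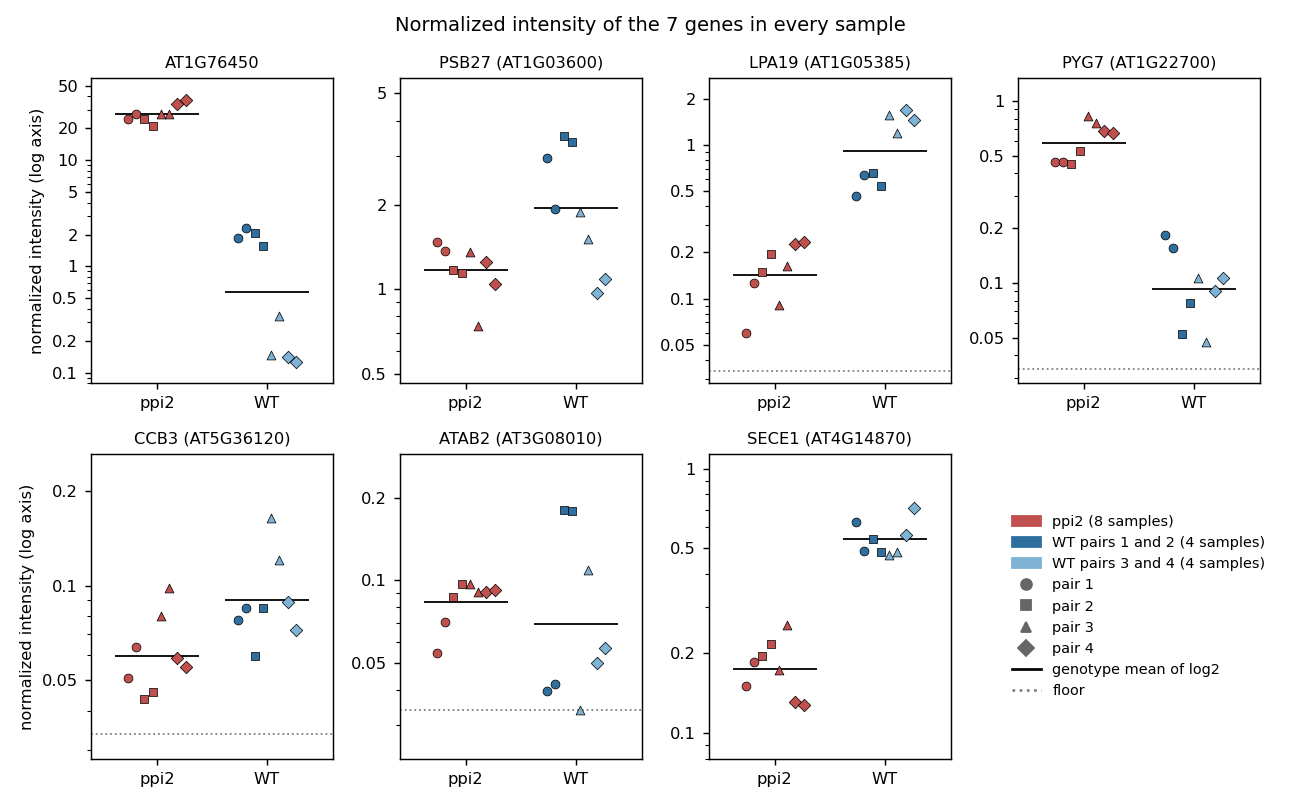
Normalized intensity (log axis) of the 7 genes in each of the 8 ppi2 and 8 WT samples. Points are samples with 1 symbol per pair, horizontal bars are the genotype means of the log2 values, and the dotted line is the floor of 0.0338 where it lies within a panel. AT1G76450 and PYG7 stood higher and LPA19 and SECE1 lower in every ppi2 sample than in every WT sample, and the other 3 genes overlapped.

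AT1G76450 encodes a protein with a PsbP domain, the fold of the extrinsic PsbP subunit that helps hold the manganese cluster of photosystem II on the lumenal side. Its normalized intensity was 25.8, 22.5, 27.5 and 35.4 in ppi2 pairs 1 to 4, against 2.07, 1.81, 0.225 and 0.133 in WT pairs 1 to 4. The signal thus had 3 levels that did not overlap, with ppi2 at the top, WT pairs 1 and 2 in between and WT pairs 3 and 4 at the bottom. The mean log2 level was 4.78 ± 0.27 in ppi2 and -0.79 ± 2.04 in WT (SD, n = 4 each), a difference of 5.56 ± 0.97 (SE).

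Most of the uncertainty of this difference lay between the WT subsets. AT1G76450 was 14.2-fold higher in ppi2 than in WT pairs 1 and 2 and 158-fold higher than in WT pairs 3 and 4, while WT pairs 1 and 2 stood 11.2-fold above WT pairs 3 and 4. Leaving out WT pair 1 made the mean difference 72.4-fold and leaving out WT pair 4 made it 29.0-fold, against 47.3-fold with all pairs. The deposited intensities showed the same order before the quantile normalization used here. They had a lowest value of 20.8, a median of 26.8 and a highest value of 36.6 in ppi2, against 0.0694, 0.952 and 2.48 in WT. On that scale WT pairs 1 and 2 stood 20.2-fold above WT pairs 3 and 4. Of all 3439 probes 1 had a larger positive difference than AT1G76450.

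No other gene of the PsbP family had a probe of its own. The list of this family written for this work held 11 genes, among them the PsbP subunits and the PsbP-like proteins, and AT1G76450 was the single measured one.

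LPA19 and PSB27 both encode lumenal proteins related to Psb27, a factor that binds photosystem II while it is assembled or repaired. LPA19 is needed for efficient processing of the C terminus of the reaction-centre protein D1, and PSB27 for recovery of photosystem II after damage by light. The pair differed in how their signals related to genotype.

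The normalized intensity of LPA19 was 0.0866, 0.170, 0.121 and 0.230 in ppi2 pairs 1 to 4, against 0.545, 0.595, 1.38 and 1.57 in WT pairs 1 to 4. Every ppi2 sample lay below every WT sample. The mean log2 level was -2.81 ± 0.61 in ppi2 and -0.13 ± 0.80 in WT (SD, n = 4 each), a difference of -2.68 ± 0.48 (SE), or 6.42-fold lower in ppi2.

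The size of this difference varied with the WT subset and with the scaling. LPA19 was 3.995-fold lower in ppi2 than in WT pairs 1 and 2 and 10.3-fold lower than in WT pairs 3 and 4. The gap between the WT subsets depended on the scaling. After normalization LPA19 was 2.58-fold higher in WT pairs 3 and 4 than in WT pairs 1 and 2, and as deposited 1.15-fold higher. As deposited its intensity had a lowest value of 0.0735, a median of 0.197 and a highest value of 0.273 in ppi2, against 0.404, 0.616 and 0.793 in WT. The genotypes did not overlap on that scale either, and LPA19 was 3.66-fold lower in ppi2.

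PSB27 had a normalized intensity of 1.42, 1.15, 1.002 and 1.14 in ppi2 pairs 1 to 4, against 2.39, 3.44, 1.69 and 1.03 in WT pairs 1 to 4. WT pair 4 lay within the range of ppi2 and the other WT pairs above it. The ppi2 pairs were close to each other, at a mean log2 level of 0.23 ± 0.21 (SD, n = 4), while the WT pairs were spread over 0.96 ± 0.74 (SD, n = 4). The log2 difference was -0.73 ± 0.37 (SE).

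Against WT pairs 1 and 2 PSB27 was 2.45-fold lower in ppi2, and against WT pairs 3 and 4 it was 1.13-fold lower. As deposited the direction turned, with PSB27 1.10-fold higher in ppi2 than in WT. The deposited intensities had a lowest value of 0.919, a median of 1.66 and a highest value of 1.85 in ppi2, against 0.370, 1.39 and 4.27 in WT. The ppi2 samples thus lay inside the WT range, below WT pairs 1 and 2 for the most part and mostly above WT pairs 3 and 4. As deposited PSB27 was 5.19-fold higher in WT pairs 1 and 2 than in WT pairs 3 and 4. PSB27 and AT1G76450 were thus both higher in WT pairs 1 and 2, and LPA19 was higher in WT pairs 3 and 4 after normalization. These 3 were the genes that differed by 2-fold or more between the normalized WT subsets, as did 31.5% of all probes.

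**Figure D2:**
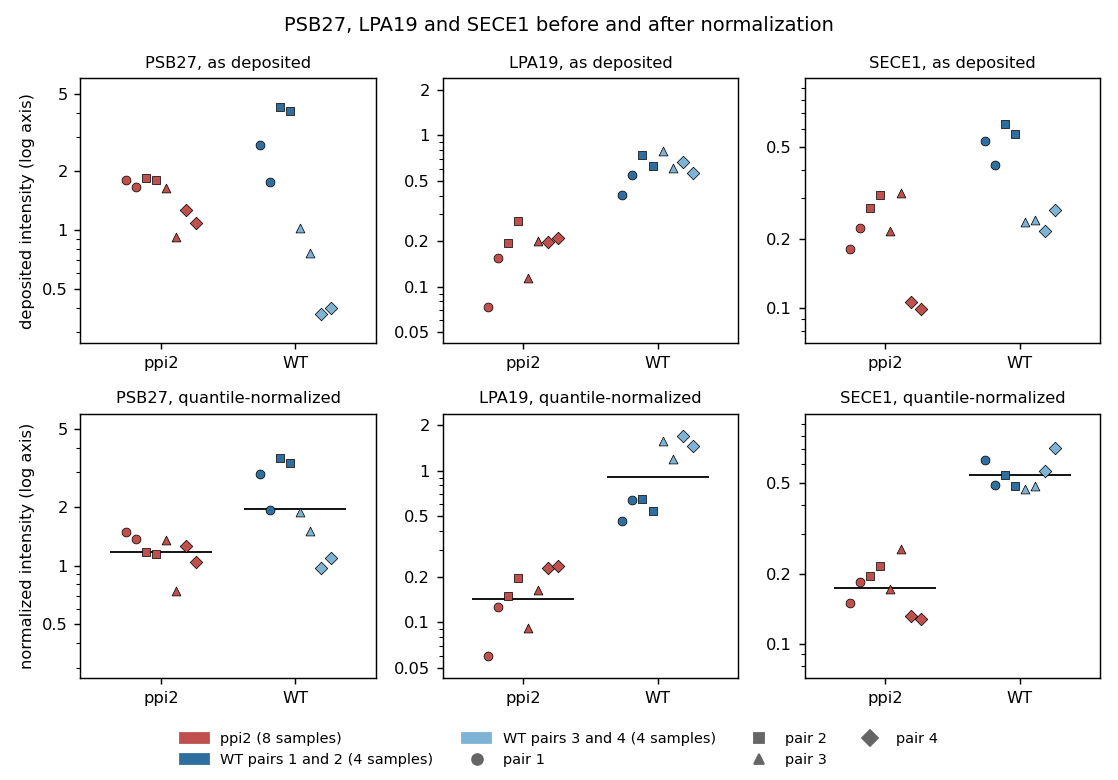
Intensity (log axis) of PSB27, LPA19 and SECE1 in each ppi2 and WT sample, as deposited in the upper row and after quantile normalization in the lower row, with bars at the genotype means of the log2 values in the lower row. LPA19 was lower in ppi2 in both rows, while SECE1 overlapped as deposited and PSB27 in both.

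PYG7 encodes a thylakoid protein with tetratricopeptide repeats that is needed for photosystem I to accumulate. Its normalized intensity was 0.464, 0.489, 0.796 and 0.674 in ppi2 pairs 1 to 4, against 0.169, 0.0639, 0.0711 and 0.0981 in WT pairs 1 to 4. Every ppi2 sample lay above every WT sample. The mean log2 level was -0.76 ± 0.37 in ppi2 and -3.42 ± 0.63 in WT (SD, n = 4 each), a difference of 2.66 ± 0.35 (SE), or 6.34-fold higher in ppi2.

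The difference of PYG7 was of like size against both WT subsets, at 5.68-fold from WT pairs 1 and 2 and 7.07-fold from WT pairs 3 and 4. As deposited it was 9.75-fold, with a lowest value of 0.578, a median of 0.702 and a highest value of 1.04 in ppi2, against 0.0320, 0.0653 and 0.194 in WT. The WT signals were dim, and the samples of WT pair 3 differed by 1.17 on the log2 scale within the pair. The ppi2 samples differed by at most 0.22 within any pair.

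ATAB2 encodes an RNA-binding protein that helps activate translation of chloroplast messages for the reaction centres of both photosystems. It was dim in both genotypes. Normalized intensities were 0.0621, 0.0920, 0.0937 and 0.0916 in ppi2 pairs 1 to 4, against 0.0408, 0.179, 0.0607 and 0.0534 in WT pairs 1 to 4. WT pair 2 stood above all ppi2 pairs and the other WT pairs below them. The log2 difference was 0.26 ± 0.47 (SE), and it was -0.13 with each sample centred on its median and -0.03 against WT pairs 1 and 2 alone. Without WT pair 2 it was 0.72. The samples of WT pair 3 differed by 1.69 on the log2 scale, since sample 5 was at the floor.

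CCB3 encodes a thylakoid membrane protein that takes part in attaching heme to cytochrome b6. In normalized intensity, CCB3 had 0.0570, 0.0447, 0.0887 and 0.0571 in ppi2 pairs 1 to 4, against 0.0813, 0.0712, 0.141 and 0.0801 in WT pairs 1 to 4. Pair 3 was the brightest pair in both genotypes, and ppi2 pair 3 lay above 3 of the 4 WT pairs. The log2 difference was -0.59 ± 0.29 (SE). It kept its sign in all 21 alternative analyses, from -0.99 with each sample centred on its median to -0.06 with the floor raised to the 25th percentile, which left most of its values at that floor.

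SECE1 encodes a subunit of the Sec translocase of the thylakoid, which threads unfolded lumenal proteins through the membrane and inserts some membrane proteins. The normalized intensity of SECE1 was 0.167, 0.207, 0.211 and 0.129 in ppi2 pairs 1 to 4, against 0.552, 0.511, 0.478 and 0.632 in WT pairs 1 to 4. Every ppi2 sample lay below every WT sample. SECE1 was the one gene of the 7 whose SD was smaller in WT, at a mean log2 level of -2.51 ± 0.33 in ppi2 and -0.89 ± 0.17 in WT (SD, n = 4 each). The difference was -1.62 ± 0.18 (SE), or 3.08-fold lower in ppi2, and the WT subsets differed by 1.04-fold.

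The separation of SECE1 depended on how the samples were scaled. As deposited its intensity had a lowest value of 0.0991, a median of 0.221 and a highest value of 0.316 in ppi2, against 0.216, 0.344 and 0.631 in WT, so that 4 of the 8 WT samples lay within the range of ppi2. All 4 belonged to WT pairs 3 and 4, the samples with the lowest medians as deposited, at 0.216 to 0.267. SECE1 was 1.79-fold lower in ppi2 on that scale, 2.88-fold lower with samples centred on their medians and 3.35-fold lower after cyclic loess.

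**Figure D3:**
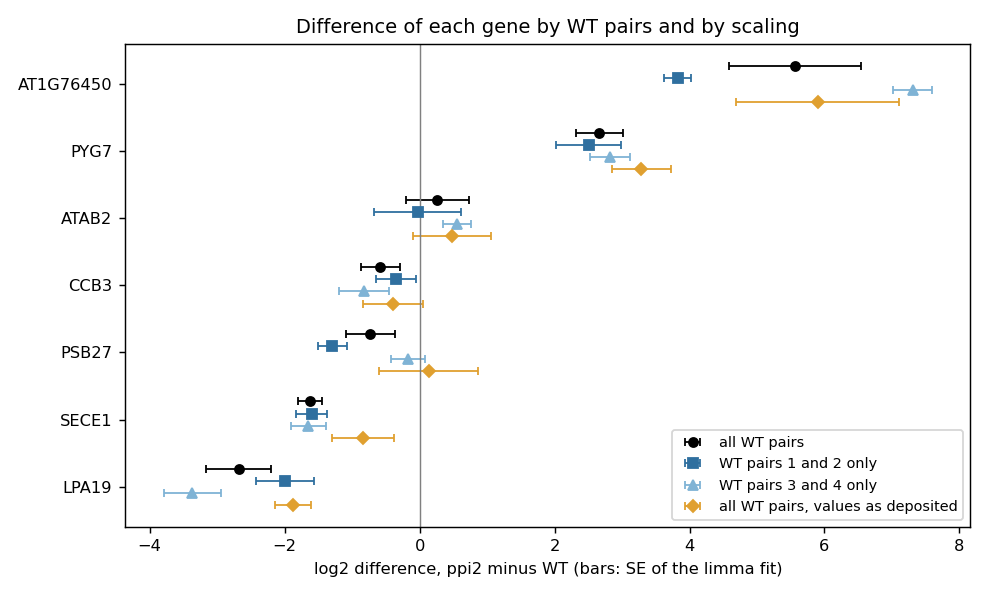
Log2 difference of each gene, ppi2 minus WT, with bars for the SE of the limma fit. Each gene is shown against all WT pairs, WT pairs 1 and 2 only, WT pairs 3 and 4 only, and against all WT pairs in the values as deposited. AT1G76450 lay between 3.82 and 7.31. PYG7, SECE1, LPA19 and CCB3 kept their sign in all 4, and PSB27 and ATAB2 lay on both sides of 0.

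The spread between pairs was wider in WT than in ppi2 for 6 of the 7 genes, and for 79.3% of all probes. The median SD of the log2 level was 0.33 over ppi2 pairs and 0.74 over WT pairs for the 7 genes, and 0.27 and 0.63 for all probes. The ranks that follow use values known when the genes were picked, and only describe them. The difference of AT1G76450 was the 3rd largest in size of all probes. Of all probes, 4.94% had a larger difference in size than LPA19, 5.06% than PYG7, 18.7% than SECE1, 49.5% than PSB27, 56.6% than CCB3 and 73.3% than ATAB2.

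**Figure D4:**
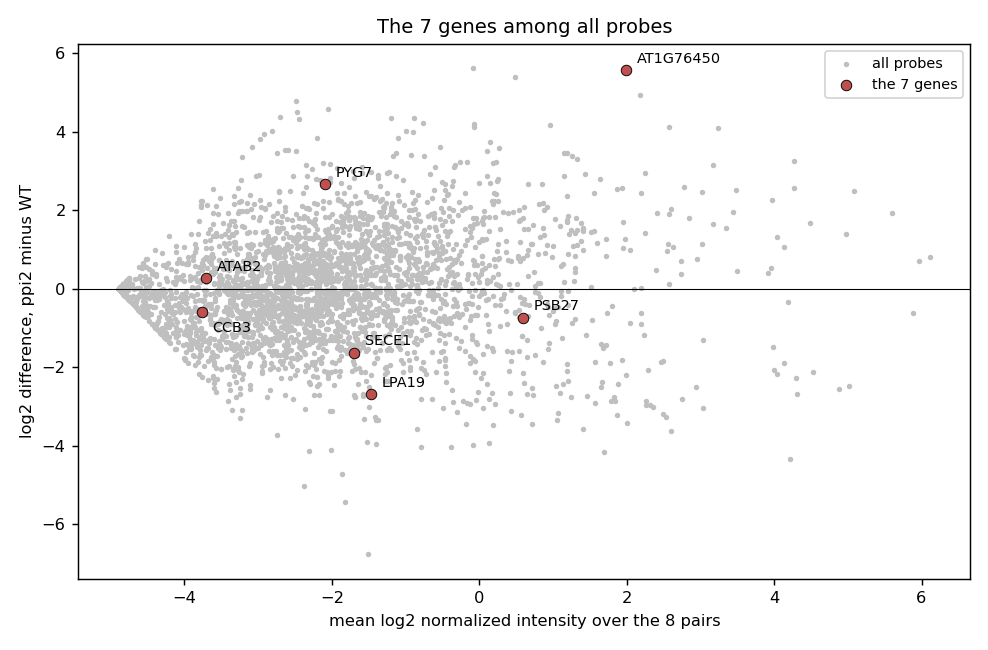
Log2 difference (ppi2 minus WT) of all 3439 probes against their mean log2 normalized intensity over the 8 pairs, with the 7 genes marked. AT1G76450 lay at the upper edge of the cloud, PYG7 and LPA19 lay far above and below 0, and PSB27, CCB3 and ATAB2 lay near 0.

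Other genes of the same pathway were rarely measured. The lists of photosystem II assembly and repair, photosystem I assembly and translation, cytochrome b6f assembly, the PsbP family and thylakoid protein targeting held 67 genes, of which 10 had a probe of their own. These were the 7 genes above and 3 others, of which limma called 0 higher and 1 lower, with 2 not passing, where 14.2% of all probes passed higher and 14.4% lower.

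The gene that fell was RBD1 (AT1G54500), a rubredoxin that takes part in the assembly of photosystem II. Its normalized intensity was 0.286, 0.308, 0.275 and 0.286 in ppi2 pairs 1 to 4, against 0.540, 0.488, 0.768 and 0.825 in WT pairs 1 to 4. All ppi2 samples lay below all WT samples, and RBD1 was 2.21-fold lower in ppi2 (log2 difference -1.15 ± 0.18 SE, limma with Benjamini-Hochberg adjusted p = 0.00503). As deposited the difference was -0.25 and did not pass (limma adjusted p = 0.52).

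SECE2 (AT4G38490) encodes the counterpart of SECE1 in the Sec translocase of the inner envelope. Normalized intensities of SECE2 were 0.504, 0.492, 0.581 and 0.610 in ppi2 pairs 1 to 4, against 0.313, 0.247, 1.47 and 1.03 in WT pairs 1 to 4. The ppi2 pairs stood between the WT subsets, and the difference from all WT pairs was -0.10 (95% interval -1.54 to 1.34, limma adjusted p = 0.982). Against WT pairs 1 and 2 alone the log2 difference of SECE2 was 0.97 (limma adjusted p = 0.0114), and against WT pairs 3 and 4 alone it was -1.17 (limma adjusted p = 0.00804). The split of WT was chosen with these data known, and each fit leaves out the spread between the WT subsets. The SE was 0.603 with all WT pairs, and 0.145 and 0.183 in the subset fits. These 2 p-values therefore carry no weight as tests of genotype. CCS1 (AT1G49380), which attaches heme to c-type cytochromes, was at the floor in all 16 samples and was listed at 0 in all 8 ppi2 and 7 of the 8 WT samples, so it has no fold.

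Subunits of the complexes that these factors build were measured by 3 probes, of 23 genes listed, of which 1 rose, 1 fell and 1 missed the threshold, beside the same 28.6% of all probes that passed. The signal of PSAN (AT5G64040), a lumenal subunit of photosystem I, was 0.458 to 0.892 in ppi2 samples and 1.87 to 8.51 in WT samples (log2 difference -2.69 ± 0.49 SE, limma adjusted p = 0.00858). In photosystem II, the small subunit PSBW (AT2G30570) had 69.0 to 97.9 in ppi2 samples, 1 of which was at the ceiling of the scale as deposited, and 5.29 to 22.6 in WT samples (2.50 ± 0.43 SE, limma adjusted p = 0.00717, and 1.73 with an adjusted p = 0.0705 with samples centred on their medians). PSBY (AT1G67740) differed by 0.17 (95% interval -0.80 to 1.14) and did not pass in limma. In the same ppi2 samples a higher PYG7 stood beside a lower PSAN in photosystem I. In photosystem II a lower LPA19 stood beside a higher PSBW and a PSBY that did not pass. A relation between the factors and the subunits was not tested.

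Of 5 genes listed as markers of green tissue, LHCB1.5 (AT2G34420) of the light-harvesting antenna was the single measured one, with normalized intensities of 1.497 to 2.26 in ppi2 samples and 10.9 to 24.3 in WT samples. None of the 3 genes listed for root and non-green plastids had a probe of its own, so a difference in tissue could not be checked. LHCB1.5 alone cannot tell less green tissue from less of its RNA per cell. The part that a difference in green tissue has in the values of the 7 genes was not tested.

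The genes with the most similar profiles were taken from the 534 other probes with a single listed gene that were above the floor in at least 12 samples, by Pearson's r of log2 values over the 16 samples. These values contain the genotype difference and the WT subsets, and the samples share their arrays, so they are given as a measure of likeness alone. AT1G76450 was most like AT2G13690 (0.984) and AT1G10310 (0.978). For the deviations from the genotype means r was 0.944 with each of them. Those deviations still contain the gap between the WT subsets, which was 11.2-fold for AT1G76450. Here and below, r of the deviations therefore does not separate likeness within a genotype from that gap.

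LPA19 was most like AT2G35490, which encodes a plastid fibrillin (0.970, and 0.853 for the deviations), and PSAN (0.968 and 0.835). PYG7 was most like AT4G04370 (0.986 and 0.889) and AT4G27510 (0.951 and 0.744). SECE1 was most like AT3G06570 (0.938) and AT1G11730 (0.936), but the deviations within genotypes had values of 0.0233 and 0.330, so its likeness to these genes lay mainly in the genotype difference. For PSB27, CCB3 and ATAB2, whose genotypes overlapped, r over the 16 samples was lower, while r of the deviations was not lower than for SECE1. PSB27 was most like AT5G22340 (0.890 and 0.841 for the deviations) and AT1G25500 (0.885 and 0.863). CCB3 was most like AT3G20490 (0.853 and 0.780) and AT2G14660 (0.811 and 0.689). ATAB2 was most like AT5G17840 (0.813 and 0.806) and AT1G22040 (0.787 and 0.802).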

How the data were processed

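The authors' deposited table held 1 linear intensity per probe and sample, with exact zeros, and the same highest value in every sample. Details of spot quantification, background correction and scaling were not given in the sources used here. All 16 columns matched samples by accession. Genes were named from the platform annotation, only where a probe listed 1 gene, and 690 of 692 such probes matched the RefSeq gene table (TAIR10.1), which was used for names alone. The annotation may be old. Probe sequences were not at hand, so a share of signal from related genes could not be checked.

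Values were quantile-normalized and set to a floor at the 5th percentile of positive values (0.0338, or -4.89 on the log2 scale), then taken to log2. Consecutively numbered samples were averaged, because all 8 samples of each genotype correlated best with their partner (r across probes of 0.959 to 0.979 in ppi2 and 0.902 to 0.938 in WT, against at most 0.952 and 0.870 otherwise). No label explains the pairs or says that samples came from separate plants, so p-values measure a spread that may be technical. Differences are ppi2 minus WT from limma 3.58.1 in R 4.3.3, with Benjamini-Hochberg adjustment over 3439 probes and a threshold of 0.05.

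The 7 genes, the gene lists, the use of pairs and the split of WT were chosen with earlier results of these data known. The rule for named genes took the 7 genes, every measured gene of the lists, and for each of the 7 the 2 most similar profiles. Alternatives changed the normalization, the floor, the filter, the moderation and the use of pairs, and left out each pair. Precision is limited by how many arrays there were and by the dim end of the scale, as arrays have no read depth.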

Additional observations from a re-analysis of the deposited data

Results flagged for a closer look

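Among the 26 groups of 4 pairs examined for the named genes, 2 held a pair that stood far from the other 3, where a rate of 1 in 20 would give 1.3. ATAB2 had a log2 level of -4.01 in ppi2 pair 1, against -3.45 to -3.42 in the other ppi2 pairs. In WT pair 1 PSBW was at 2.50 on the log2 scale, and the remaining WT pairs lay at 4.13 to 4.37.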

How the results depend on the processing

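There were 21 alternatives. The signs of AT1G76450 (3.82 to 7.31), PYG7 (2.18 to 3.29), LPA19 (-3.37 to -1.87), SECE1 (-1.74 to -0.84) and CCB3 (-0.99 to -0.06) held in all of them, as log2 differences. PSB27 turned to 0.14 as deposited. ATAB2 turned to -0.13 after median centring, -0.15 with a floor at the 25th percentile and -0.0301 against WT pairs 1 and 2. SECE2 turned to 0.81 as deposited, 0.12 after median centring and 0.97 against WT pairs 1 and 2, and PSBY to -0.16 against WT pairs 3 and 4. Leaving out 1 pair at a time gave -0.51 to 0.34 for SECE2, above 0 without WT pair 3 and without WT pair 4 (0.17), and -0.11 (without WT pair 2) to 0.53 for PSBY. The cause was not tested. By limma 984 of all probes passed, and 1616 when samples were not averaged in pairs, which counts more samples as independent. Leaving out 1 pair gave 686 to 1087. Of the 3 other assembly and targeting genes 1 passed, while 0 did as deposited and 2 against either WT subset. Fits to a WT subset leave out the spread between the subsets. As deposited, where 0 passed by limma, RBD1 and SECE2 had adjusted p-values of 0.52 and 0.107. With the pair number as a replicate block across genotypes 846 probes passed, and 5 of the 7 genes did, CCB3 being the one gained (log2 difference -0.67 to -0.49 between equal pair numbers, SE 0.0586 with the block). Deviations from the genotype means correlated at 0.0313 to 0.381 between equal numbers. Each pair matched its own number best, a hint from the data alone, but the value of pair 3 was near 0, so the numbers were not treated as a pairing. CCB3, ATAB2 and CCS1 were near the floor, where differences are least certain. In WT the same held for PYG7, with a geometric mean of 0.0931 beside 0.0899 for CCB3. Its log2 difference was 2.18 with the floor at the 25th percentile.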
